A study of Mus musculus with 6 samples.

Results

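Bone morphogenetic proteins (BMPs) and growth and differentiation factors (GDFs) are secreted ligands of the TGF-beta superfamily. The 10 ligand genes described here, Bmp2, Bmp3, Bmp4, Bmp5, Bmp6, Bmp7, Bmp8a, Gdf5, Gdf6 and Gdf10, were chosen by name from the 24346 gene names measured, and all 10 were found. The samples were calvariae, the roofs of the skull, dissected from newborn mice, from which polyadenylated RNA was sequenced. The control group, Pth1rfl/fl (3 libraries), carried floxed alleles of the parathyroid hormone receptor gene Pth1r, and the group labelled mutant, Prx1-Cre;Pth1rfl/fl (3 libraries), carried the Prx1-Cre transgene as well as those alleles. Prx1-Cre is driven by regulatory sequence of a mesenchymal homeobox gene and is known to act in limb and skull mesenchyme, so cells outside that lineage keep the receptor alleles intact. No group with the transgene alone was analysed here, and the labels do not say whether animals were pooled or whether replicates came from separate animals, so p-values measure the spread between these samples.

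BMP ligands are made as precursors, cut by furin-type proteases and released as dimers. They bind type I and type II receptor kinases, which phosphorylate Smad1, Smad5 and Smad9, and these enter the nucleus with Smad4 and switch on genes such as the Id family. Secreted antagonists, noggin, chordin and gremlins among them, hold the ligands away from their receptors. In the skull this signalling is known for the commitment of cells to bone and cartilage and for keeping sutures open or letting them close.

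Values are FPKM, in which fragments are divided by transcript length and by the mapped fragments of each library, so levels of different genes can be set side by side per length. Absolute depth is unknown. Relative depth, read from the steps of the smallest values, was 1 in control 1 by definition and lay between 0.703 and 0.972 in the other libraries. Osteoblast markers were abundant, with Col1a1, the main collagen chain of bone, at 9427 to 13131 FPKM. Pth1r itself, the targeted gene, had 89.2, 93.3 and 102 FPKM in controls 1 to 3 against 127, 125 and 142 in libraries 1 to 3 labelled mutant, higher in every library labelled mutant, so the directions given follow the labels only.

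None of the ligand genes passed the test between the groups, yet the ligands did not lie on the same side. Gdf10, by far the most abundant of them, had a higher value in each library labelled mutant than in any control, while Bmp6 had a lower value in each. Bmp2, Bmp3, Bmp4, Bmp5, Bmp7 and Gdf5 had lower means in the libraries labelled mutant and Bmp8a a higher one, with overlapping groups. In limma with Benjamini-Hochberg adjustment over 13180 genes at 0.05, 0 of the 9 tested ligands passed, against 0.607% of all tested genes. At an unadjusted p under 0.05 there were 3 of 9 (Gdf10, Bmp6 and Bmp4), against 10.5% of all tested genes. Groups that did not overlap were found for 2 of 9, against 16.1% of all tested genes, and 7 of 9 had a lower value, against 49.5%. The 1 ligand left out of the test was Gdf6, whose mean of 0.377 FPKM lay below the minimum of 1 FPKM, while Gdf5, just inside, had 1.03 FPKM.

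**Figure D1:**
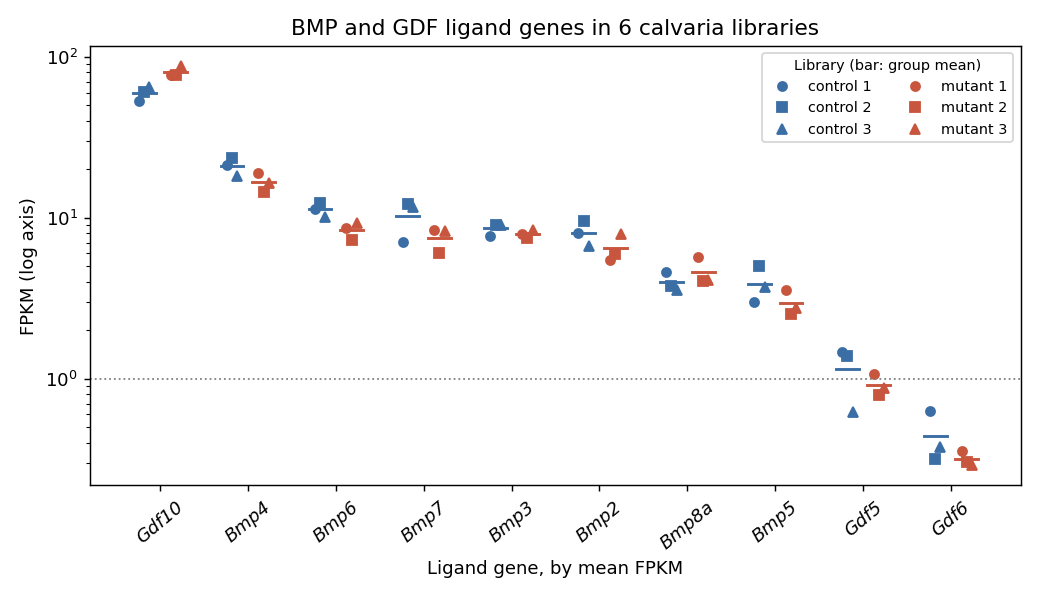
FPKM (log axis) of each ligand gene in the 3 control libraries (blue) and the 3 libraries labelled mutant (red), ordered by mean, with short bars for the group means and a dotted line at 1 FPKM, the minimum mean for the test. Gdf10 stands above all other ligands in every library, and Gdf10 and Bmp6 are the tested genes whose groups do not overlap.

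The order of abundance was nearly the same in both groups. Gdf10 ranked first and Bmp4 second in each of the 6 libraries, and Gdf5 and Gdf6 held the last places in each. The lowest Gdf10 value lay above the highest Bmp4 value, and the lowest Bmp4 value above the highest Bmp6 value. Below Bmp4, the ranges of Bmp6, Bmp7, Bmp3 and Bmp2 overlapped. Bmp6 exceeded Bmp7 in 5 of 6 libraries, Bmp7 exceeded Bmp3 in 3 of 6 and Bmp3 exceeded Bmp2 in 4 of 6, while Bmp6 exceeded Bmp2 in each of the 6. Bmp8a and Bmp5 overlapped too, with Bmp8a higher in 4 of 6. Set among all 24346 names by mean FPKM, Gdf10 lay above 95.7% of them, Bmp4 above 83.0%, Bmp6 above 72.1% and Gdf5 above 46.0%.

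Gdf10 and Bmp3 encode the divergent pair of the family. Bmp3 protein is known to oppose the bone-inducing BMPs, and Gdf10, also called BMP3b, is its closest relative. Gdf10 had 53.1, 60.9 and 64.7 FPKM in controls 1 to 3 against 77.2, 76.8 and 87.9 in libraries 1 to 3 labelled mutant. The groups did not overlap, and control 1 was the lowest of the 6 libraries. The group means of 59.6 ± 5.92 and 80.6 ± 6.27 FPKM (SD, n = 3 each) stood at a ratio of 1.35. On the log2(FPKM + 1) scale the difference was 0.43 ± 0.09 (SE), with a 95% interval from 0.22 to 0.65, and did not pass (limma, Benjamini-Hochberg adjusted p = 0.127). Over the 15 other settings tried the adjusted p ran from 0.0942 to 0.286 and the difference stayed positive.

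Bmp3 did not share that pattern. It had 7.68, 9.02 and 9.03 FPKM in controls against 7.90, 7.50 and 8.37 in the libraries labelled mutant, and the groups overlapped. Its log2 difference was -0.10 ± 0.08 (SE), with a 95% interval from -0.29 to 0.10 (limma, Benjamini-Hochberg adjusted p = 0.775). Without control 1 it was -0.17, and without control 2, control 3 or library 2 labelled mutant it was -0.065 in each case. The gene lies on the plus strand of chromosome 5, at positions 98854415 to 98884396, and like Gdf10 has 3 coding exons, with a coding length of 470 codons. In bulk tissue, fewer cells of a type and less RNA per cell cannot be told apart. Of 11 osteoblast markers, 9 had higher values in the libraries labelled mutant (Col1a1, Col1a2 and Sp7 with overlapping groups) and 1 passed (Ibsp). The other 2, Bglap and Bglap2, were lower, and neither passed. Their log2 differences of -1.31 and -1.37 were larger in size than the 0.94 of Ibsp. Over all 13180 tested genes, 6657 had higher values and 69 of those passed. Summed FPKM of the osteoblast markers was 21204 to 23702 in controls and 22591, 21943 and 29931 in libraries 1 to 3 labelled mutant. Most of these sums came from Col1a1 and Col1a2. All 8 osteoclast markers were higher and 7 passed, with sums of 586 to 657 FPKM against 1606 to 1752 FPKM. All 5 markers of hypertrophic cartilage were higher too and 2 passed (Mmp13 and Ibsp); 2 of the 5, Alpl and Ibsp, are also on the osteoblast list. Meanwhile the 6 skeletal muscle markers had lower means and 0 passed. None of the markers in these lists was at 0, and their part in the Gdf10 values was not tested.

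Among all 13179 other tested genes, the one whose pattern over the 6 libraries lay nearest to that of Gdf10 was Pth1r. Likeness was measured as the root mean square difference of log2(FPKM + 1) values after each gene's mean was subtracted, and it was 0.042 for Pth1r. Next came Raph1, which encodes a protein of the actin cytoskeleton, at 0.045, and Rgs3, a regulator of G protein signalling, at 0.054. Raph1 had 9.56, 9.86 and 11.0 FPKM in controls against 13.4, 13.4 and 15.3 in the libraries labelled mutant. Seen from Pth1r, Gdf10 was the fifth nearest gene, a rank looked up after the values were seen, and the next nearest ligand, Bmp8a, ranked 6313. The likeness includes the difference between the groups, and all values come from the same 6 libraries.

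**Figure D2:**
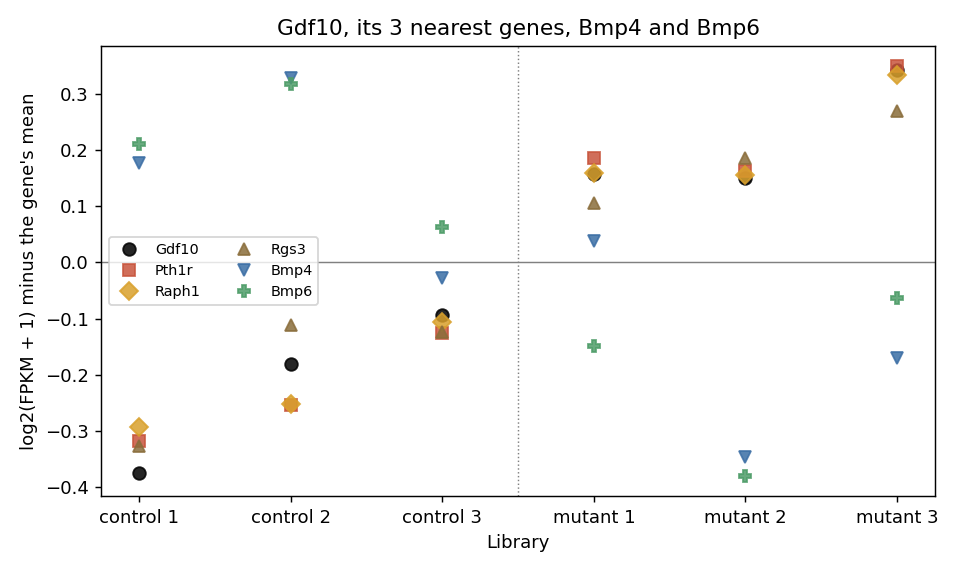
Log2(FPKM + 1) of Gdf10, the 3 genes nearest to it (Pth1r, Raph1 and Rgs3), Bmp4 and Bmp6, each with its own mean subtracted, in the 6 libraries (the dotted line parts the groups). Gdf10 runs from -0.37 in control 1 to 0.34 in library 3 labelled mutant close to Pth1r, while Bmp6 lies above its mean in all controls and below it in all libraries labelled mutant.

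Bmp4 and Bmp2, close relatives and strong inducers of bone and cartilage, form the next subfamily. Bmp4 had 21.2, 23.6 and 18.2 FPKM in controls against 19.1, 14.4 and 16.4 in the libraries labelled mutant. Library 1 labelled mutant lay above control 3, so the groups overlapped. The means of 21.0 ± 2.70 and 16.6 ± 2.35 FPKM (SD, n = 3 each) gave a ratio of 0.793, and the log2 difference was -0.32 ± 0.12 (SE), with a 95% interval from -0.61 to -0.02 (limma, Benjamini-Hochberg adjusted p = 0.425). With array weights it was -0.16 (adjusted p = 0.594 in limma). Bmp2 had 8.04, 9.52 and 6.72 FPKM in controls against 5.48, 5.98 and 7.92 in the libraries labelled mutant. Library 3 labelled mutant reached the control range, and the log2 difference was -0.29 ± 0.15 (SE; 95% interval from -0.65 to 0.08; limma, Benjamini-Hochberg adjusted p = 0.6). Without control 2 it was -0.18. Bmp2 lies on the plus strand of chromosome 2, at positions 133552159 to 133562885, with 394 codons in 2 coding exons, the same count as Bmp4.

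Gdf10 and Bmp4 lie on the same chromosome. On GRCm38 (the assembly that mm10 denotes), Gdf10 lies on the plus strand of chromosome 14, at positions 33923587 to 33937983, in 3 exons that are all coding, with a coding length of 476 codons. Bmp4 lies on the minus strand of chromosome 14, at positions 46383520 to 46390669, with 408 codons in 2 coding exons. The bases before the transcription starts of these 2 most abundant ligands, whose values lay in opposite directions, are shown from RefSeq (GRCm38.p6), 5′ to 3′ in the direction of the gene, at chr14:33923337-33923586 (plus strand) for Gdf10 and chr14:46390670-46390919 (minus strand) for Bmp4. A stretch of Gm15217, annotated on the other strand, overlaps an exon of Bmp4. Capitals mark the GC box GGGCGG, on either strand, a motif added after the sequences were read.
Gdf10: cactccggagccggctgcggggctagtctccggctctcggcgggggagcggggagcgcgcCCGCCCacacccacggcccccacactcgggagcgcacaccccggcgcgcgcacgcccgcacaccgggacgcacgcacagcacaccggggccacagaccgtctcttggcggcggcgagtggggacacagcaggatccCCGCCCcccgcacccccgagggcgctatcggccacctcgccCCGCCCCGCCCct
Bmp4: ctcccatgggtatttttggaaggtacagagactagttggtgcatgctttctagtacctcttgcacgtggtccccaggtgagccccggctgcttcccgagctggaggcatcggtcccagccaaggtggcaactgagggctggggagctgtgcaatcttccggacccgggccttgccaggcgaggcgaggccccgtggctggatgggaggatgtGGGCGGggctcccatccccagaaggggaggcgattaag

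The Gdf10 window is rich in G and C. Its 250 bases were 78.8% G or C, above 98.3% of the 32851 windows of that length in the table, with 35 CpG pairs, and the Bmp4 window was 63.2% G or C with 11. The GC box occurred 4 times in the Gdf10 window (2 of these matches overlap by 1 base), nearest at 8 bases before the start, and 1 time in that of Bmp4, at 38 bases. It was present in 32.7% of all windows. The cAMP response element TGACGTCA, its half-site TGACG (contained in it), the GC-rich Smad element GGCGCC and the TATA box TATAAA were also searched on both strands. They occur in 1.55%, 17.8%, 9.59% and 12.4% of all windows and in none of the 5 ligand windows that the table holds (Bmp4, Bmp5, Bmp6, Bmp8a and Gdf10). The windows of Bmp4, Bmp8a and Gdf10 end just before the GENCODE gene start. That of Bmp5 ends on the first base of the gene, at position 75775364. That of Bmp6 lies inside the GENCODE span of the gene. Each match or absence describes the letters in these windows.

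Bmp5, Bmp6, Bmp7 and Bmp8a form a subfamily whose genes each have 7 coding exons. Bmp6, best known for its part in iron control by the liver, had 11.4, 12.3 and 10.2 FPKM in controls against 8.65, 7.22 and 9.24 in the libraries labelled mutant. Every control lay above every library labelled mutant. The means were 11.3 ± 1.08 and 8.37 ± 1.04 FPKM (SD, n = 3 each), a ratio of 0.741, with a log2 difference of -0.39 ± 0.11 (SE) and a 95% interval from -0.64 to -0.15 (limma, Benjamini-Hochberg adjusted p = 0.22). Over the other settings the adjusted p ran from 0.157 to 0.461 and the difference stayed negative. The gene lies on the plus strand of chromosome 13, at positions 38345107 to 38500302, and its last bases overlap the 3′ end of Txndc5 on the minus strand. The sources used here do not say whether counting used strand, and reads of the pair there cannot then be told apart.

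Bmp7, needed for eye and kidney development, had 7.11, 12.2 and 11.6 FPKM in controls against 8.35, 5.997 and 8.22 in the libraries labelled mutant. Control 1 stood apart from controls 2 and 3 and lay below libraries 1 and 3 labelled mutant. The log2 difference was -0.39 ± 0.21 (SE) with all libraries (95% interval from -0.87 to 0.10; limma, Benjamini-Hochberg adjusted p = 0.596). Without control 1 it was -0.61 (adjusted p = 0.23 in limma), and without control 2 or library 2 labelled mutant it was -0.26 or -0.25. The summed neural and meningeal markers were also low in control 1, at 97.2 FPKM against 498 and 486 FPKM in controls 2 and 3 and 141 to 273 FPKM in the libraries labelled mutant. That low sum was Ptgds, a prostaglandin synthase abundant in the meninges, with 30.9 FPKM in control 1 and at least 108 FPKM in the other libraries. The 6 other markers of the list summed to 66.3, 65.1 and 64.9 FPKM in controls against 47.9, 111 and 33.3 in the libraries labelled mutant. None of the 6 tested members of the list of 7 passed, and 0 of the 7 were at 0. Their part in the Bmp7 values was not tested. Bmp7 lies on the minus strand of chromosome 2, at positions 172868012 to 172940321, and no other annotated gene overlaps it.

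Bmp5, the gene of the short-ear mouse, whose ear and rib cartilages are malformed, had 3.003, 4.99 and 3.70 FPKM in controls against 3.58, 2.51 and 2.74 in the libraries labelled mutant. Control 2 was the highest and the groups overlapped (log2 difference -0.30 ± 0.17 SE, 95% interval from -0.70 to 0.10; limma, Benjamini-Hochberg adjusted p = 0.625). Without control 2 the difference was -0.15, and with array weights it was -0.17. The gene lies on the plus strand of chromosome 9, at positions 75775364 to 75900310, and Gm26903, annotated as antisense, overlaps one of its exons. Bmp8a, known from germ cell development, went the other way, with 4.59, 3.77 and 3.54 FPKM in controls against 5.72, 4.04 and 4.12 in the libraries labelled mutant, and overlapped too (log2 difference 0.17 ± 0.14 SE, 95% interval from -0.16 to 0.50; limma, Benjamini-Hochberg adjusted p = 0.763). Without library 1 labelled mutant the difference of Bmp8a was 0.037, without control 3 it was 0.11, without control 1 it was 0.26, and with array weights it was 0.33. Bmp8a lies on the minus strand of chromosome 4, at positions 123312645 to 123343252, and the gene Oxct2a sits within one of its introns on the same strand. Its near-identical paralog Bmp8b was listed at no more than 0.27 FPKM in any library, and reads shared by the pair can be split between them in ways these values do not show.

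Gdf5 and Gdf6, ligands of forming joints, of which Gdf6 also acts at skull sutures, were the scarcest. Gdf5 had 1.46, 1.37 and 0.621 FPKM in controls against 1.07, 0.793 and 0.878 in the libraries labelled mutant. Control 3 was the lowest of all 6 libraries, and the log2 difference was -0.15 ± 0.18 (SE; 95% interval from -0.58 to 0.29; limma, Benjamini-Hochberg adjusted p = 0.867), which turned to 0.039 with array weights. Without control 3 it was -0.34, with quantile normalization -0.040 and with a pseudocount of 0.1 it was -0.23. Gdf6 had 0.625, 0.315 and 0.376 FPKM in controls against 0.354, 0.301 and 0.289 in the libraries labelled mutant. In a fit without the filter its log2 difference was -0.12 ± 0.09 (SE; limma, Benjamini-Hochberg adjusted p = 0.762). Gdf5 lies on the minus strand of chromosome 2, at positions 155941023 to 155945367, and part of it is overlapped by Gm15557, annotated on the other strand. Gdf6 lies on the plus strand of chromosome 4, at positions 9844372 to 9862345. Each has 2 exons, both coding.

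Cartilage markers stand beside these values. Control 3 also had the lowest cartilage sum among the controls, at 1345 FPKM against 2500 and 2493 FPKM in controls 1 and 2, and the libraries labelled mutant had 707 to 888 FPKM. Of 16 listed names 14 were found, Lect1 among them, while Cnmd and Snorc were not. Of these 14 markers, 13 had lower values in the libraries labelled mutant, 4 passed (all lower) and 0 were at 0. The list of joint and tendon markers had sums of 203 to 288 FPKM in controls against 166 to 223 FPKM in those labelled mutant, with 3 of 3 lower, none past the threshold and none at 0. What part these have in the ligand values was not tested.

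**Figure D3:**
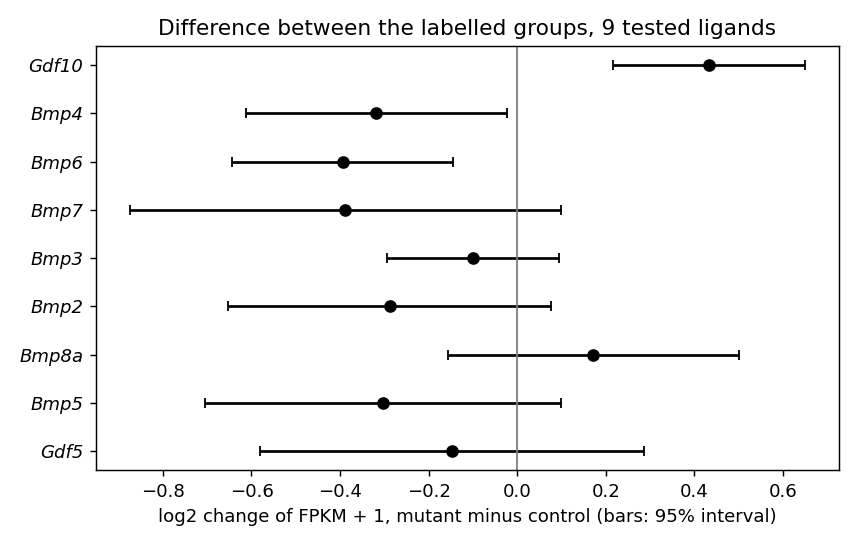
Log2 change of FPKM + 1 (libraries labelled mutant minus controls) for the 9 tested ligand genes, ordered by abundance, with 95% intervals from limma. The intervals of Gdf10, Bmp4 and Bmp6 do not reach 0, and none of the 9 genes passed after adjustment over all tested genes.

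Single libraries were often the extremes. Control 2 held the highest value of 5 of the 10 ligands (Bmp2, Bmp4, Bmp5, Bmp6 and Bmp7), and library 2 labelled mutant held the lowest of 5 (Bmp3, Bmp4, Bmp5, Bmp6 and Bmp7). Control 2 also had the highest level of inner ear markers, with a sum of 89.5 FPKM over 6 inner ear markers against at most 5.63 FPKM in the other controls and 1.94 to 4.50 FPKM in the libraries labelled mutant. Of those markers 3 were tested, all 3 had lower values in the libraries labelled mutant, none passed, and none was at 0 in every library. Without control 2 the log2 difference of Bmp4 was -0.23 and that of Bmp6 -0.33, and without library 2 labelled mutant they were -0.23 and -0.30. Neither passed in these fits (limma, Benjamini-Hochberg adjusted p between 0.338 and 0.693).

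The sum of the ligands and the shares within it are described here without a test. Summed over all 10 genes, the ligands had 118, 138 and 129 FPKM in controls against 137, 126 and 146 in the libraries labelled mutant, and the groups overlapped. Without Gdf10, the sum of the 9 others was 65.0, 77.1 and 64.0 FPKM in controls against 60.2, 48.8 and 58.2 in the libraries labelled mutant, lower in each of the latter. This sum leaves out the ligand with the largest rise, a choice made with the values known. Its direction follows in large part from that choice and is no separate result. Gdf10 made up 44.9%, 44.1% and 50.3% of the 10-gene sum in controls and 56.2%, 61.2% and 60.2% in the libraries labelled mutant. Bmp4 and Bmp6 took 16.4% ± 1.98 and 8.83% ± 0.87 in controls and 12.2% ± 1.47 and 6.12% ± 0.32 in the libraries labelled mutant (SD, n = 3 each). These shares are parts of a whole, so a larger share of 1 ligand lowers the rest.

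**Figure D4:**
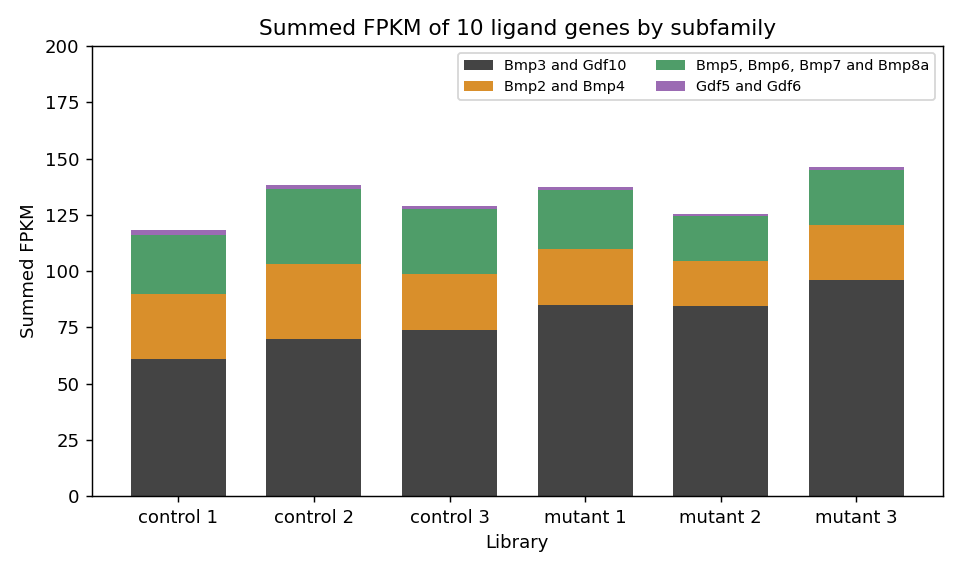
Stacked bars of summed FPKM per library for the 4 subfamilies of ligand genes. The total runs from 118 to 146 FPKM with overlapping groups, while the Bmp3 and Gdf10 part is 60.8 to 73.7 FPKM in controls against 84.3 to 96.2 FPKM in those labelled mutant.

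Within a library the ratio of 2 genes does not depend on the scaling of that library. Gdf10 stood to Bmp4 as 2.51, 2.58 and 3.56 in controls and 4.04, 5.33 and 5.35 in the libraries labelled mutant. Its ratio to Bmp6 was 4.67, 4.94 and 6.36 in controls and 8.93, 10.6 and 9.51 in the libraries labelled mutant. Neither ratio overlapped between the groups, and an exact permutation test on the log2 ratios, two-sided, gave p = 0.1 for each, the smallest that 3 libraries against 3 allow. The ratios were chosen after the values were seen. For Bmp6 the outcome was fixed, since Gdf10 was higher and Bmp6 lower in every library labelled mutant than in any control. For Bmp4 the separation of Gdf10 already favoured it. These p-values therefore add no support to the differences of the single genes.

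Downstream and around the ligands, no gene of the BMP pathway lists passed either. The lists together, from receptors to targets, held 56 measured genes, of which 51 were tested. In limma 0 passed after adjustment, and at an unadjusted p under 0.05 there were 3 higher and 8 lower, or 5.88% and 15.7%, beside 5.91% and 4.62% of all tested genes. Of the 51, 29 had lower values (56.9%), with a median log2 difference of -0.02, beside 49.5% and 0.0015 over all tested genes. For the 9 tested ligands the median was -0.29.

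Processing proteases cut ligands and their inhibitors, and receptors carry the signal across the membrane. The list of proteases also holds Pcolce, an enhancer of procollagen proteases that is no protease itself. Of its 7 tested genes, 4 had higher and 3 lower values, with log2 differences from -0.28 to 0.20. Pcsk6, which cuts ligand precursors, had 40.2 ± 4.03 and 46.4 ± 4.55 FPKM, Bmp1, a procollagen protease that also cleaves chordin and is no ligand despite its name, had 139 ± 7.74 and 149 ± 11.4 FPKM, and its relative Tll1 had 3.004 ± 0.13 and 2.30 ± 0.05 FPKM, in controls and in libraries labelled mutant (SD, n = 3 each). The Tll1 groups did not overlap, as for 16.1% of all tested genes. Its log2 difference of -0.28 ± 0.08 (SE) did not pass (limma, Benjamini-Hochberg adjusted p = 0.245). Of 10 tested receptors and co-receptors, 4 had higher and 6 lower values, with a median log2 difference of -0.04. The smallest p values were those of Eng, a co-receptor of vessel lining, at 42.4 ± 2.08 and 46.4 ± 0.84 FPKM, Bambi, a decoy receptor, at 11.4 ± 0.41 and 9.63 ± 1.66 FPKM, and Rgma, a BMP co-receptor, at 12.3 ± 1.43 and 10.2 ± 1.39 FPKM (SD, n = 3 each).

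Among these lists the Smads spread least. The 8 tested Smads and Smurfs lay between -0.08 and 0.11 on the log2 scale, with 6 higher and 2 lower. Smad1 and Smad5, which carry the BMP signal, had 15.4 ± 0.83 and 14.8 ± 0.89 FPKM in controls, against 16.0 ± 0.68 and 15.7 ± 0.65 in the libraries labelled mutant, and Smurf2, a ubiquitin ligase of Smads, had 14.3 ± 0.80 and 15.5 ± 0.25 FPKM (SD, n = 3 each).

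Of 14 tested antagonists, 4 had higher and 10 lower values, with log2 differences from -0.51 to 0.47. Chordin-like Chrdl1 had 17.0, 15.2 and 17.1 FPKM in controls against 25.9, 20.1 and 23.5 in the libraries labelled mutant, while chordin itself, Chrd, had 12.8, 11.8 and 11.5 against 9.30, 10.2 and 9.88 FPKM. Both parted the groups without overlap and neither passed (limma, Benjamini-Hochberg adjusted p = 0.134 and 0.208). They were named for their small p, so a parting of the groups is partly built in. In the list 1 higher and 2 lower genes of 14 did not overlap, beside 1231 higher and 895 lower of all 13180 tested genes (16.1% in either direction). Fstl1, a follistatin-like protein of mesenchyme, had 686 ± 15.4 and 610 ± 8.49 FPKM (SD, n = 3 each), with an adjusted p of 0.335 in limma.

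Of 12 tested target genes, 4 had higher values (among them Runx2 and Sp7, which are also on the osteoblast list) and 8 lower values. Groups did not overlap for 2 higher and 4 lower ones, beside 1231 higher and 895 lower of all 13180 tested genes (16.1% in either direction). Id1, a direct target of BMP receptors that blocks differentiation factors, had 87.8, 108 and 90.4 FPKM in controls against 65.5, 59.1 and 72.2 in the libraries labelled mutant. Every control was above every library labelled mutant, with an adjusted p of 0.105 in limma, which became 0.0382 with array weights, the 1 setting of 16 in which it passed. Of the other Id genes, Id2 and Id4 overlapped between the groups and Id3 did not. Their log2 differences were -0.12 (Id2), -0.21 (Id3) and -0.55 (Id4), with an adjusted p of 0.675, 0.472 and 0.686 in limma. Msx2, a homeobox gene of skull growth, had 13.2, 15.2 and 12.2 FPKM in controls against 9.07, 7.19 and 10.9 in the libraries labelled mutant (adjusted p = 0.217 in limma). Hey1, which BMP and Notch signals can both induce, had higher values in the libraries labelled mutant, at 6.28, 5.74 and 6.93 against 9.41, 8.64 and 8.34 FPKM (adjusted p = 0.107 in limma). Id1, Msx2 and Hey1 were named for their small p, so a parting of the groups is partly built in.

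**Figure D5:**
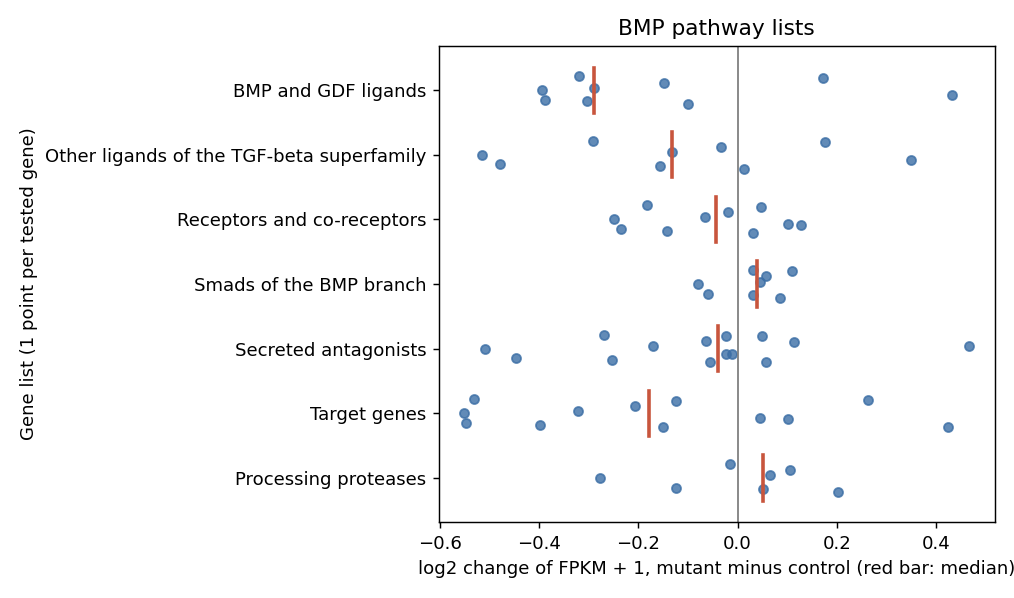
Log2 change of FPKM + 1 (libraries labelled mutant minus controls) for each tested gene of the ligand and pathway lists, 1 point per gene, with the median of each list as a red bar. The 8 Smads and Smurfs lie between -0.08 and 0.11, while ligands, antagonists and targets spread to both sides.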

How the data were processed

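RNA from newborn calvaria was sequenced as stranded messenger RNA libraries, per the labels' protocols. The deposited values are FPKM, made by the authors with Cufflinks 2.2.1 after TopHat2 2.0.13, Bowtie2 2.2.3 and SAMtools 0.1.19 on mm10, per the submitters' processing notes; their options, the annotation, strand use and depth are not given in the sources used here. That the unit is FPKM was taken from Cufflinks and from the values. The 13180 genes whose mean over the libraries reached 1 FPKM were tested on log2(FPKM + 1), a scale that understates changes of low genes, with limma 3.58.1 in R 4.3.3 (group as the 1 term, eBayes with trend, two-sided, Benjamini-Hochberg adjustment), and the procedure was tested on simulated data. Ratios are of mean FPKM. Coordinates and overlaps come from GENCODE M21, promoter windows from RefSeq, which matched 5 of the 10 ligands. The members, pathway lists and tests were chosen with earlier results of these data known. Named pathway genes are the 3 with the smallest p in each list and any that passed. The other settings were a pseudocount of 0.1, no filter, a filter at 5 FPKM, quantile normalization, median-of-ratios scaling, array weights, a replicate block, robust eBayes, eBayes without trend, and leaving out each library.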

Additional observations from a re-analysis of the deposited data

How the results depend on the processing

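The count of ligands past the threshold was 0 under each of the 15 other settings. Over all tested genes 80 passed, against 50 with no filter on low values, 183 with array weights and 25 with the replicate block. Leaving out 1 library gave between 16 (without library 1 labelled mutant) and 44 (without control 3), from fits with fewer samples. The only direction to turn among the 9 ligands and 18 pathway genes named was that of Gdf5, at 0.039 with array weights. Otherwise the cause of these differences was not tested. Deviations of same-numbered libraries correlated at 0.016, -0.071 and 0.015, so the numbers give no sign of pairing. Under the replicate block the difference of Gdf10 had an adjusted p of 0.137 in limma. Scarce ligands rest on few fragments, and the number of these is unknown.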

Other observations

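Other ligands of the superfamily spread to both sides as well. Of 23 listed, all were measured, 9 were tested in limma and 0 passed after adjustment. At an unadjusted p under 0.05 there were 1 higher and 1 lower (11.1% each), beside 5.91% and 4.62% of all tested genes. Tgfb1, a TGF-beta that bone matrix stores, had 40.6, 43.2 and 45.3 FPKM in controls against 50.9, 53.7 and 60.9 in the libraries labelled mutant, with an adjusted p of 0.17 (limma, Benjamini-Hochberg). Inhbb, the activin B chain gene, had 2.07, 2.54 and 1.95 FPKM in controls against 1.24, 1.52 and 0.949 in the libraries labelled mutant (adjusted p = 0.216 in limma). Lefty1, an inhibitor of Nodal signalling, had 1.62 ± 0.41 and 1.13 ± 0.19 FPKM (SD, n = 3 each). Tgfb3, at 80.6 ± 2.499 and 79.1 ± 9.93 FPKM (SD, n = 3 each), was as abundant as Gdf10 in the libraries labelled mutant and more abundant than it in the controls, where the ratio of Gdf10 to Tgfb3 was 0.644, 0.746 and 0.832. The libraries labelled mutant had ratios of 1.02, 1.08 and 0.973. Bmp10, Inhbc and Inhbe were listed at 0 in every library.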
